A study of Mus musculus with 8 samples.

Results

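The 10 genes described here encode proteins of the perineuronal matrix and proteases that cut such matrix: the proteoglycans neurocan (Ncan) and versican (Vcan), the glycoprotein tenascin-R (Tnr), 5 ADAMTS proteases (Adamts1, Adamts3, Adamts5, Adamts17 and Adamts18) and 2 membrane-bound matrix metalloproteinases (Mmp16 and Mmp17). They were chosen by name, with earlier results of the same comparison in view, so their differences between the groups are given as a description with no test. All 10 were among the 15519 genes of the deposited table. The libraries held nuclear RNA of pyramidal cells from the hippocampus of wild-type mice (genotype WT). These were place cells, neurons that fire in particular parts of an environment, found by imaging during navigation, marked with light and collected as nuclei. One group of 4 libraries was labelled Day 0 place cell and the other, also of 4, Recurring place cell. What separates these labels is not defined in them, and age, sex and the number of nuclei per library were not given in the sources used here. Each title carries a different mouse number. Replicate numbers follow the order of deposit and pair no libraries.

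In the brain, neurocan, versican and their relatives aggrecan and brevican form the lectican family, which carry chondroitin sulfate chains and bind hyaluronan through link proteins. Tenascins cross-link lecticans at their other end, and the resulting lattice is densest in the perineuronal nets around some neurons, where it is known for limiting synaptic plasticity. ADAMTS proteases are secreted metalloproteinases, several of which cleave lectican cores, while matrix metalloproteinases cut a wider range of matrix and cell-surface proteins, and TIMP proteins and Reck inhibit metalloproteinases.

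The promoters of Adamts1 and Ncan are shown because these genes mark the ends of what was seen: Adamts1 was the one member whose groups did not overlap, and Ncan had the smallest spread over all 8 libraries. RefSeq on GRCm38.p6 held an entry for 7 of the 10 genes: Ncan, Vcan, Tnr, Adamts1, Adamts3, Adamts17 and Adamts18. Each window runs from 250 bases before to 50 bases after the annotated start, and the build is older than the GRCm39 named for these libraries. Capitals mark the GC box GGGCGG and the TATA box TATAAA on either strand.
Adamts1, chr16:85803064-85803363, minus strand: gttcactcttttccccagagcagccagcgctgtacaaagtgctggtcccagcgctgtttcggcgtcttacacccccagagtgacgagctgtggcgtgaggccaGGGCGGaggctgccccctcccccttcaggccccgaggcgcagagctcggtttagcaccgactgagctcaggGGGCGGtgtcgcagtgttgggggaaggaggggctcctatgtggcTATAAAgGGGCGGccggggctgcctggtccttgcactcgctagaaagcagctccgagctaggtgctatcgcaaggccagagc
Ncan, chr8:70120795-70121094, minus strand: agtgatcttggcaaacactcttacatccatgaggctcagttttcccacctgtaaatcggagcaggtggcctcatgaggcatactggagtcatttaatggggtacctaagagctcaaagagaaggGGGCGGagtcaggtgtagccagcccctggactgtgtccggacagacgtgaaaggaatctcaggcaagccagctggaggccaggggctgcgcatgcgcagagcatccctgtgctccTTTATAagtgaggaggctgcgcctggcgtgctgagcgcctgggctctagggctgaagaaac
Adamts1 held 3 GC boxes and 1 TATA box, and Ncan 1 of each. Over all 32851 promoters in the RefSeq table, 35.7% held a GC box and 13.6% a TATA box. The Adamts1 window had 18 CpG dinucleotides and the Ncan window 9, against a median of 7. Neither held the cAMP response element TGACGTCA, the AP-1 motif TGANTCA or the E-box CACGTG, which stood in 1.79%, 7.81% and 7.15% of all windows, both strands searched and no motif overlapping another as marked here. These matches describe the letters of a window and are not evidence of binding.

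Depth ranged from 8374986 to 14887866 reads per library, with 10718 to 13807 genes detected. CA1 pyramidal markers were read at summed normalized counts of 29261 to 35665 in Day 0 and 31425 to 46325 in Recurring cells, with 9 of 10 markers read in every library. Levels are normalized counts, which are whole reads divided by a size factor for each library, and differences are Recurring minus Day 0 on the log2(normalized count + 1) scale with the standard error (SE) and 95% interval of limma, a linear model fitted to all genes. A gene was tested where at least 4 libraries had a normalized count of 10 or more, which 7 members and 11078 genes in all met. No gene passed limma's adjusted p threshold of 0.05: 0 of 11078, or 0%, with a lowest adjusted p of 0.981, and 0 of the 7 tested members. At an unadjusted p under 0.05 it gave 401 genes, 3.62% of those tested, and voom called 0 with 518 at that level. In bulk libraries of this kind, fewer cells with a transcript and less transcript per cell cannot be told apart.

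Among the members, the mean of log2(normalized count + 1) was higher in Recurring cells for 3 (Vcan, Adamts1 and Adamts5) and lower for 7. For 2 of those 7 the mean normalized count itself was the higher in Recurring cells, at 656 against 604 for Mmp17 and 20 against 17.1 for Adamts3. Higher and lower refer to log2 means below unless normalized counts are named. The 7 tested members were split 2 higher and 5 lower with a median difference of -0.64, and all tested genes 5553 and 5525 with a median of 0.005. Of the 2 higher ones, Adamts1 met the count filter only through the Recurring libraries, where it was high. Of the 7 tested members 3 had at least 1 library without a read, 42.9%, against 45.6% of all tested genes.

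**Figure D1:**
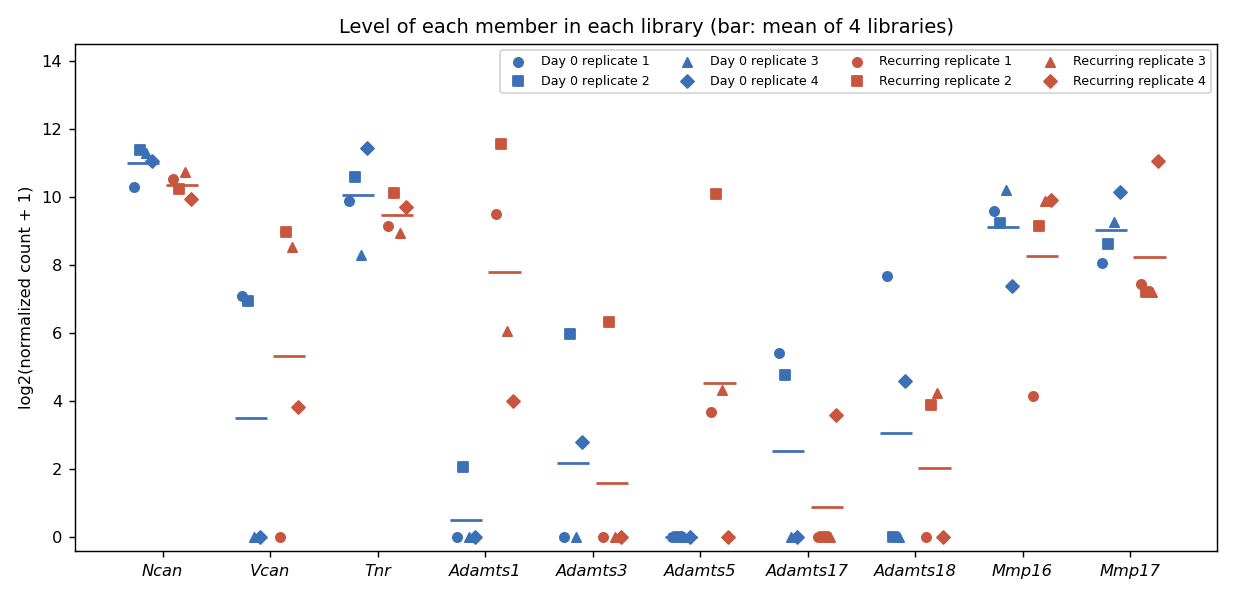
Level of the 10 members as log2(normalized count + 1) on the vertical axis, 1 point per library, Day 0 in blue and Recurring in red, with a bar at the mean of 4 libraries. Ncan lies in a narrow band in all 8 libraries, while Adamts1 stands at 0 to 3.19 normalized counts in Day 0 and 15.2 to 3032 in Recurring libraries.

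Ncan, a lectican made by neurons and astrocytes, was the steadiest member. Its normalized counts were 1252, 2647, 2514 and 2135 in Day 0 replicates 1 to 4 and 1486, 1217, 1692 and 986 in Recurring replicates 1 to 4. Of the Day 0 libraries 3 lay above every Recurring library, and Day 0 replicate 1 lay within the Recurring range, so the groups overlapped. On the log2 scale Day 0 libraries averaged 11.00 ± 0.49 and Recurring libraries 10.37 ± 0.34 (SD, n = 4 each), which differ by -0.64 (SE 0.48, 95% interval -1.64 to 0.36). Leaving out any 1 library kept the difference between -0.89 and -0.50.

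Vcan, a lectican found in oligodendrocyte precursors and around developing and adult neurons, was read in 5 libraries of 8. Normalized counts of Vcan were 136, 123, 0 and 0 in Day 0 and 0, 505, 373 and 13.2 in Recurring replicates 1 to 4. Both groups held libraries at 0 and libraries above 100, and they overlapped throughout. The difference was 1.83 (SE 2.67, 95% interval -3.82 to 7.47), and leaving out 1 library gave 0.61 (without Recurring replicate 2) to 3.56 (without Recurring replicate 1). Markers of oligodendrocyte precursors were sparse, with 3 of 8 in the table (Olig1, Olig2 and Pcdh15). Their summed normalized count was 0 to 213 in Day 0 and 50.9 to 473 in Recurring cells, and the precursor markers Pdgfra and Cspg4 were not in the table. The part of such cells in the Vcan values was not tested.

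Tnr, a tenascin of perineuronal nets that oligodendrocyte lineage cells and some neurons make, was read in all 8 libraries. Tnr stood at normalized counts of 947, 1541, 311 and 2786 in Day 0 and 566, 1119.7, 493 and 832 in Recurring replicates 1 to 4. The Day 0 group held both the lowest and the highest library and enclosed the whole Recurring range. The SD of its log2 level over 4 libraries was 1.34 for Day 0 and 0.54 for Recurring cells, and the difference was -0.57 (SE 0.72, 95% interval -2.09 to 0.95). It was -0.10 without Day 0 replicate 4 and -1.16 without Day 0 replicate 3. Oligodendrocyte markers, 7 of 8 in the table, summed to 1808, 6008, 1403 and 12031 in Day 0 and 4613, 1246, 2111 and 7350.4 in Recurring replicates 1 to 4. In Day 0 cells they stood in the same order as Tnr, lowest in replicate 3 and highest in replicate 4, and in Recurring cells they did not. Their part in the Tnr values was not tested.

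Adamts1, a secreted protease that cleaves aggrecan and versican, had the widest gap between the groups. Its reads numbered 0, 4, 0 and 0 in Day 0 and 1161, 3756, 62 and 15 in Recurring replicates 1 to 4, which are normalized counts of 0, 3.19, 0 and 0 against 719, 3032, 65.7 and 15.2. Every Recurring library stood above every Day 0 library, and within the Recurring group the levels were far apart, with 79.1% of the summed normalized count in replicate 2. Over all tested genes the groups failed to overlap in this direction in 1.24%, and nothing is read from the member's place among them, since this comparison was in view when it was chosen. Log2 levels averaged 0.52 ± 1.03 over Day 0 and 7.78 ± 3.38 over Recurring libraries (SD, n = 4 each), which differ by 7.27 (SE 2.24, 95% interval 2.54 to 12). The gene met the count filter through its Recurring libraries alone, so this interval describes the values and is not a test. Leaving out 1 library gave 6.00 (Recurring replicate 2 left out) to 8.55 (Recurring replicate 4 left out), and the difference was 4.44 without Recurring replicates 1 and 2 together, a setting added after the data were seen.

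Adamts5, a strong aggrecan-cleaving protease and the neighbour of Adamts1 on the same chromosome, was read in 3 Recurring libraries and in no Day 0 library. Its normalized counts were 0 in each Day 0 library and 11.8, 1087, 19.1 and 0 in Recurring replicates 1 to 4. Recurring replicate 2 held 97.2% of its summed count, Recurring replicate 4 was at 0, and the groups therefore overlapped at 0. Its mean normalized count was at least 99.7-fold higher in Recurring cells, with 3 reads per Day 0 library taken as the floor, and at least 3.67-fold higher without Recurring replicate 2. It was under the count filter. The log2 levels of Adamts1 and Adamts5 had a Pearson r of 0.89 over the 8 libraries, the highest of the pairs of members, with shared libraries and several zeros behind it.

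Several cell type markers were also high in Recurring replicate 1 or 2, the libraries with the most Adamts1. Recurring replicate 2 also had the most Adamts5. Summed astrocyte markers, 9 of 10 in the table, were 1659.8 to 2471 in Day 0 and 18165, 8255, 3853 and 1859 in Recurring replicates 1 to 4. Interneuron markers, 8 of 9, were 213 to 3057 in Day 0 and 264, 8002, 4499 and 910.0 in Recurring replicates 1 to 4. They were thus highest in Recurring replicate 2 but low in Recurring replicate 1. Of 6 fibroblast markers only Col1a1 was in the table, and it had a normalized count of 1623 in Recurring replicate 2, 45.8 in Recurring replicate 1 and at most 8.02 elsewhere. Endothelial markers, 5 of 7, summed to 114 to 486 in Day 0 and 26.5 to 548 in Recurring cells. Within that list Flt1 and Pecam1 stood at or under 12.9 and 3.01 in every library, while Slc2a1 made up most of the sum in Recurring replicate 1, at 547, and in Day 0 replicates 2 and 4, at 313 and 482. Markers of CA3, CA2 and dentate granule cells, 6 of 8 in the table, summed to 41.1 to 946 in Day 0 and 1990.0, 2268, 609 and 339 in Recurring replicates 1 to 4, highest in replicates 1 and 2. Different genes made up these sums: mostly Cpne4 (1485) and Grik4 (504) in Recurring replicate 1, and Nectin3 (1024) and Prox1 (740.3) in Recurring replicate 2. Microglial markers, 5 of 8, summed to 213 to 707 in Day 0 and 808, 1861, 507 and 6056 in Recurring cells, highest in replicate 4. The part of other cell types in the Adamts1 and Adamts5 values was not tested.

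**Figure D2:**
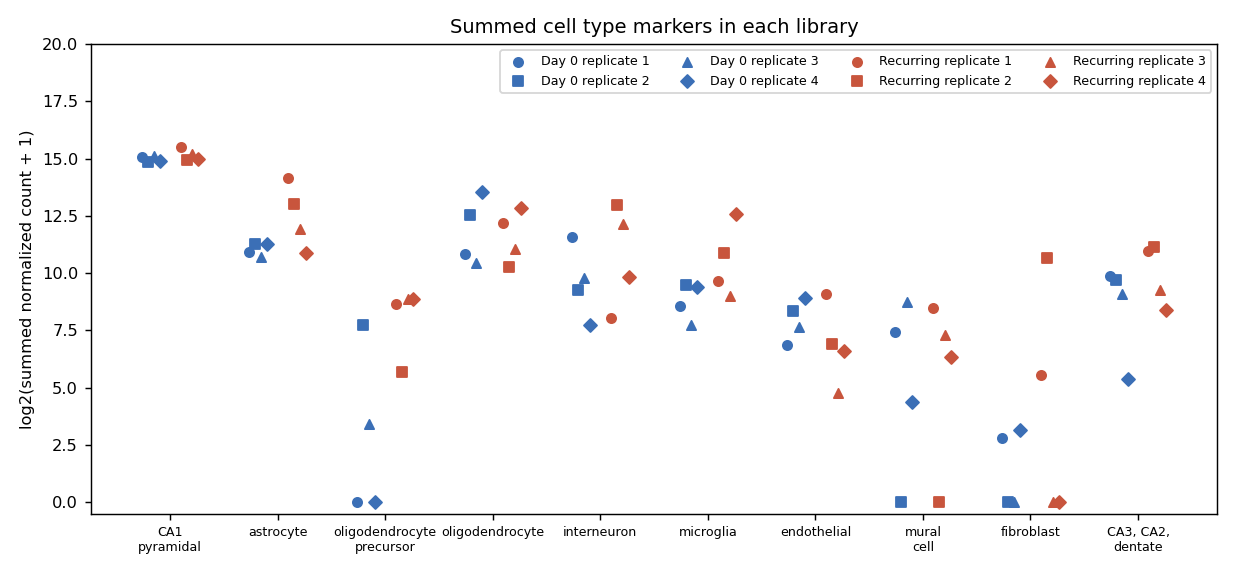
Summed normalized counts of 10 cell type marker lists as log2(sum + 1) on the vertical axis, 1 point per library, Day 0 in blue and Recurring in red. CA1 pyramidal markers are high and even in all 8 libraries, and astrocyte, interneuron and fibroblast markers reach their highest sums in Recurring replicate 1 or 2.

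Adamts3, a procollagen-processing protease that also cleaves reelin, was read in 3 libraries. Its normalized counts were 0, 62.2, 0 and 6.01 in Day 0 and 0, 79.9, 0 and 0 in Recurring replicates 1 to 4. The groups overlapped, and 1 library in each supplied nearly all of its reads. Its difference of -0.61 (SE 1.78) became 0.65 without Day 0 replicate 2 and -2.19 without Recurring replicate 2.

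Adamts17, a family member needed for ocular and skeletal connective tissue, was read in Day 0 replicates 1 and 2 at 41.6 and 26.3 normalized counts (56 and 33 reads) and in Recurring replicate 4 at 11.2 (11 reads). It was at 0 in the other libraries of both groups, which therefore overlapped, and its difference of -1.65 (SE 1.56, 95% interval -4.91 to 1.62) rests on those 3 libraries. It was -0.69 without Day 0 replicate 1 and -2.56 without Recurring replicate 4.

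Adamts18, a protease of basement membrane and axon terminals, had normalized counts of 205, 0, 0 and 23.1 in Day 0 and 0, 13.7, 18 and 0 in Recurring replicates 1 to 4. The groups overlapped at 0 and between 13.7 and 23.1. Day 0 replicate 1 held 78.9% of its summed count, and the difference of -1.04 (SE 2.02) became 0.49 without that library and -2.07 without Day 0 replicate 3.

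Mmp16, a transmembrane metalloproteinase known to activate pro-MMP-2, was read in every library. Mmp16 stood at normalized counts of 768, 608, 1187 and 166 in Day 0 and 16.7, 563, 946 and 973 in Recurring replicates 1 to 4. Recurring replicate 1 stood far below the other Recurring libraries, which lay within the Day 0 range. The difference was -0.83 (SE 1.22, 95% interval -3.40 to 1.73) and turned to 0.53 without Recurring replicate 1, with -1.41 without Day 0 replicate 4.

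Mmp17, a metalloproteinase held to the membrane by a glycolipid anchor, was also read in all 8 libraries. Its normalized counts were 266, 392, 620.2 and 1139.6 in Day 0 and 175, 146, 147 and 2156 in Recurring replicates 1 to 4. The first 3 Recurring libraries lay below every Day 0 library, and Recurring replicate 4 lay above them all. The difference was -0.79 (SE 1.04, 95% interval -2.99 to 1.41), and leaving out 1 library gave -1.74 (without Recurring replicate 4) to -0.41 (without Day 0 replicate 4).

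**Figure D3:**
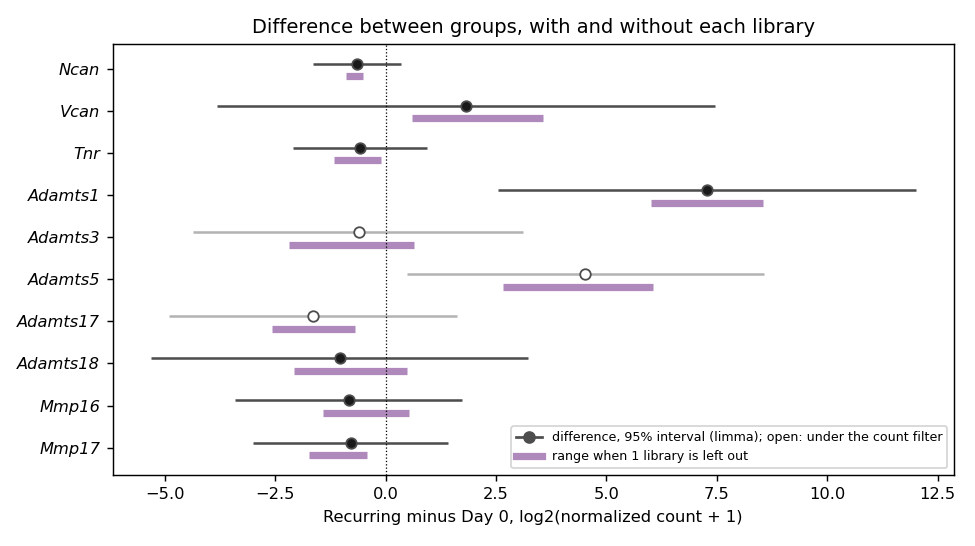
Recurring minus Day 0 difference of each member on the log2(normalized count + 1) scale, with limma's 95% interval (grey lines, open points for the 3 members under the count filter) and the range when 1 library is left out (purple). Vcan, Adamts1 and Adamts5 stay above 0 whichever library is left out, and the ranges of Adamts3, Adamts18 and Mmp16 cross 0. For Adamts1 and Adamts5 no omission could turn the sign, since no Day 0 library stands above any Recurring library.

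Reads of Xist and of Y-linked genes divided each group into 2 libraries with Xist reads (replicates 1 and 2) and 2 with Y-linked reads (replicates 3 and 4). Within the Xist libraries the Adamts1 difference was 9.5 and within the Y-linked libraries 5.04, and for Adamts5 these were 6.88 and 2.16. For Ncan they were -0.44 and -0.84, and for Tnr -0.60 and -0.54. The sign differed between the pairs for 4 members: Vcan at -2.53 and 6.19, Mmp16 at -2.77 and 1.11, Adamts3 at 0.18 and -1.41, and Adamts17 at -5.09 and 1.80. Adamts18 was at -1.90 and -0.17, and Mmp17 at -1.01 and -0.57. With 2 libraries on each side, these differences between pairs were not tested.

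Levels can be compared between genes only per length, here as the mean normalized count per kilobase of exon over 8 libraries, with exon lengths from GENCODE vM21. On this scale Ncan led at 242 ± 86.7 (SD, n = 8). Mmp17 at 95.2 ± 106, Adamts1 at 90.4 ± 200.1, Tnr at 83.5 ± 61.7 and Mmp16 at 75.4 ± 46.5 followed. These 4 did not differ from one another beyond their spread. Adamts5 at 13 and Vcan at 9.94 came next, then Adamts3 at 3.41, Adamts18 at 3.19 and Adamts17 at 1.27. Among these lower genes, neighbours lay within their spread of each other. The place of Adamts1 rests on the Recurring libraries, since it ranged per kilobase from 0 to 572.

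The wider matrix gene lists gave 90 listed genes that are not members, of which 45 were in the table and 33 were tested. Limma called 0 of the 33, with 13 higher and 20 lower log2 means in Recurring cells and a median difference of -0.15. These lists were drawn up with earlier results known, and their medians are set beside 0.005 for all tested genes as a description.

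Among matrix components, brevican (Bcan), the most abundant lectican per kilobase at 568, had normalized counts of 1809 to 3177 in Day 0 and 1686 to 2708 in Recurring cells and a difference of -0.25 (SE 0.42). Tnxb, a tenascin of connective tissue, was the one listed gene outside the members whose groups did not overlap, at 132, 55.8, 5.97 and 298 in Day 0 and 2.48, 0, 4.24 and 0 in Recurring cells. It was under the filter, it overlaps a pseudogene, and over all tested genes 1.17% failed to overlap in that direction. The link protein genes Hapln4 and Hapln2 differed by 2.00 (SE 1.96) and -2.68 (SE 1.72). Acan, the aggrecan gene of classical nets, was listed but was not in the table.

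Enzymes that build and sulfate chondroitin sulfate chains numbered 12 tested of 18, with 7 higher, 5 lower and a median of 0.73. Chpf, a chain polymerizing factor, differed by 3.82 (SE 2.42), and Chst12, a sulfotransferase with the highest mean normalized count of the list, by -1.70 (SE 1.2). Of the receptors for chondroitin sulfate proteoglycans and other matrix receptors, 7 of 8 were tested, 2 higher and 5 lower, with a median of -0.01. The receptor phosphatase gene Ptprs was among the most even genes seen, with 8451 to 11846 normalized counts over the 8 libraries and an interval of -0.52 to 0.51 around a difference of -0.0022. Ptprf and Rtn4rl2 differed by 2.55 (SE 2.00) and -2.39 (SE 2.19).

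Of the 19 ADAMTS genes, members included, 11 were in the table and 5 were tested, 1 higher (Adamts1) and 4 lower, with a median of -0.73. Adamts20, with the highest mean normalized count of the family, had 342 to 2597 normalized counts in Day 0 and 586 to 1928 in Recurring cells and a difference of -0.41 (SE 0.68). Adamts6 differed by -3.21 (SE 2.44). Of 21 matrix metalloproteinase genes 5 were in the table and 3 were tested, all with lower log2 means in Recurring cells. Mmp24 differed by -0.41 (SE 2.73) on that scale, with mean normalized counts of 111 in Day 0 and 213 in Recurring cells. Their inhibitors Timp3, Timp4 and Reck also had lower log2 means, at -1.71 (SE 2.83), -0.15 (SE 0.75) and -1.60 (SE 1.04), and none of the 3 was called by limma. The mean normalized count of Timp3 was the higher in Recurring cells, at 378 against 201, with Recurring replicate 1 at 1432 and Recurring replicates 2 and 4 at 0.

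**Figure D4:**
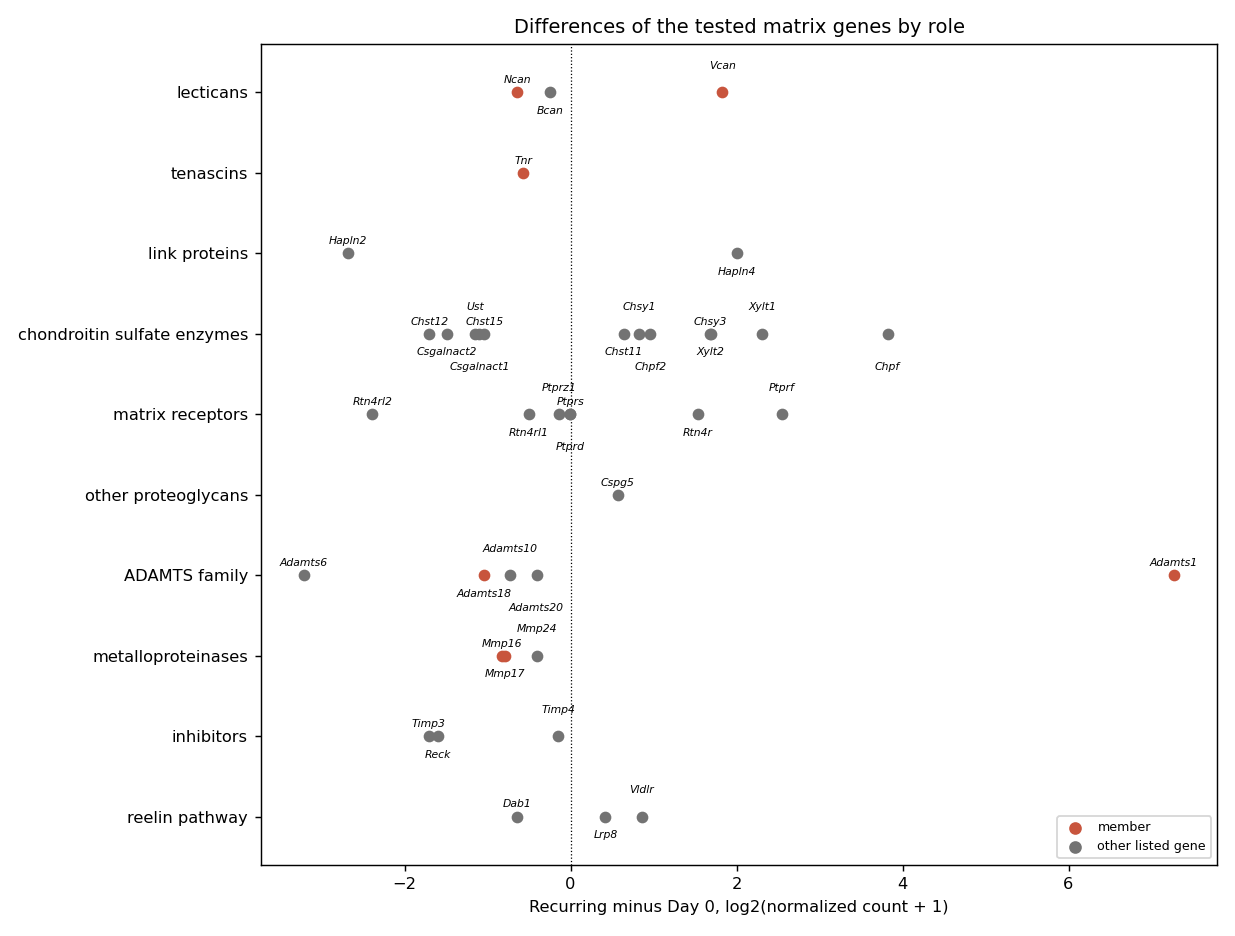
Recurring minus Day 0 difference of each tested matrix gene on the log2(normalized count + 1) scale (horizontal axis), grouped by role, with the 7 tested members in red and the 33 other tested genes in grey. Adamts1 at 7.27 stands farthest to the right, and the other genes lie between -3.21 (Adamts6) and 3.82 (Chpf). Adamts1 met the count filter through the Recurring libraries alone.

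The genes whose log2 levels most resembled 6 of the 7 tested members were sought among 9227 tested genes with a mean normalized count of 50 or more. Adamts1 was closest to Casp8ap2 (r = 0.968), Prickle2 (0.966) and Itgb8 (0.955), and Ncan to Ccdc57 (0.935), Elp4 (0.927) and Pfkm (0.923). Vcan was closest to Ankrd37 (0.993), Tmem62 (0.990) and Smim19 (0.977), and Tnr to Ctps1 (0.928), Poli (0.925) and Adrm1b (0.916). Mmp16 was closest to Chmp5 (0.982), Auts2 (0.982) and Snap47 (0.980). Adamts18 was closest to Plcb3 (0.971), Deptor (0.923) and Pggt1b (0.910). Each r is Pearson's over the same 8 libraries, and with so many candidates such values arise readily: an r over 0.9 was reached by 120 genes for Mmp16 and by 7 for Ncan.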

How the data were processed

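Nuclear RNA of 4 Day 0 and 4 Recurring libraries was made into SMART-Seq mRNA libraries, per the labels' protocols. The submitters' processing notes name STAR, HTSeq and GRCm39, with no versions or strand setting. The deposited values are a signal per gene and library. Each gene's values turned out to be whole read numbers scaled by 1 factor for that gene (0.224 to 12.5 in the members), with no depth correction. Once these factors were removed, 95909 of 95910 values lay within 0.1 of a whole read. On simulated data of 15406 genes, 99.99% of genes were recovered. Size factors (median of ratios, 0.837 to 1.61) then corrected for depth, and limma 3.58.1 (R 4.3.3; variance trend, Benjamini-Hochberg adjustment over all tested genes) was fitted to log2(normalized count + 1). No label beyond the mouse numbers says that libraries came from separate animals, and p-values then reflect only how these libraries vary. The members, gene lists and tests were chosen with earlier results of these data known. The text names all members, and of most lists the most abundant gene, the largest difference of a tested gene in each direction and any gene whose groups did not overlap. Genes of the ADAMTS-like list and of the list of other chondroitin sulfate proteoglycans are not described. Predicted genes and RIKEN clones were left out of the genes most like a member. The genes most like Mmp17 are not reported here. Alternatives were other scalings, pseudocounts, filters, voom, no variance trend, a term for Xist or Y-linked reads and leaving out libraries.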

Additional observations from a re-analysis of the deposited data

Results flagged for a closer look

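In 5 of 20 groups of 4 libraries, 1 library stood apart from the other 3 by a share of the group's log2 range above Dixon's 95% critical value. Chance gives about 1 group in 20 for values without ties. In 3 of the 5 groups the other libraries were all at 0, where the gap is the whole range whatever the size of the fourth value, and that rate does not apply. For Adamts1 in Day 0 cells it was replicate 2, with 4 reads against 0 in the others (a gap of 1 of the range). For Adamts3 in Recurring cells it was replicate 2, at 79.9 normalized counts against 0 (a gap of 1), and for Adamts17 in Recurring cells replicate 4, at 11.2 against 0 (a gap of 1). Mmp16 was low in Recurring replicate 1, at 16.7 normalized counts against 563 to 973 (a gap of 0.864). Mmp17 was high in Recurring replicate 4, at 2156 against 146 to 175 (a gap of 0.934).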

How the results depend on the processing

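With no variance trend, limma called 2 genes over the whole table in place of 0. With no filter 650 genes were at an unadjusted p under 0.05, in place of 401. Leaving out 1 library in turn gave 0 called genes each time, 344 to 440 genes at an unadjusted p under 0.05, and 3 to 4 members with a higher log2 mean in Recurring cells. Leaving out Recurring replicates 1 and 2 together, chosen after the data were seen, gave 5. Of 190 member differences under 19 alternatives, 188 moved by less than the spread between replicates. The exceptions were Adamts1 with a pseudocount of 10, at 4.57, and without both of those libraries, at 4.44. The count of 188 is no measure of robustness. Other filters, no variance trend and the term for Xist or Y-linked reads could not change a member's difference. Where replicates lay far apart, even a change of sign counted among the 188. The sign changed 5 times, in 4 members: Adamts3, Adamts18 and Mmp16 as given above without 1 library, and without both libraries Mmp16 at 0.78 and Mmp17 at 0.098. Scaling by TMM, by total reads or not at all moved the median of all tested genes to -0.0198, -0.0422 and 0.089 and changed no member's sign. The planned edgeR and DESeq2 fits were not run, because the deposited values are scaled per gene and no depositor's count table was used. No paired analysis was possible because the labels give no replicate numbers that the groups share. In a library without a read of a gene, 3 reads stand at a normalized count of 1.86 to 3.58, which is the limit that depth sets there.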

Other observations

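Recurring replicate 2 held the highest level of 4 of the 10 members (Vcan, Adamts1, Adamts3 and Adamts5) and had reads of 9 of them, the most of any library. With 11736 genes detected it was not the richest library. How often it was the highest over all genes was not counted, so this is not a trait of the members. Other matrix genes that peaked there, chosen after their values were seen, were Adamts15, another lectican-cleaving protease, at 1329.6 normalized counts against 16 or less in the other libraries, and Dse, the dermatan sulfate epimerase gene, at 793. Dse was at 0 in the 4 Day 0 libraries and in Recurring replicate 1, and at 144 and 67 in Recurring replicates 3 and 4.

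Genes of the reelin pathway, which acts through the matrix around hippocampal neurons, were tested for 3 of 4 listed. Dab1, the adaptor inside the cell, had normalized counts of 1053 to 4244 in Day 0 and 1094 to 1789 in Recurring cells and differed by -0.65 (SE 0.51). The receptor genes Vldlr and Lrp8 differed by 0.86 (SE 0.86) and 0.42 (SE 0.58). None was called by limma over all genes.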
